A study of Mus musculus with 12 samples.

Results

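Genes of skeletal muscle calcium handling, 10 in number, were followed through RNA-Seq of mouse skin: Ryr1, Cacna1s, Cacng1, Casq1, Atp2a1, Jph1, Jph2, Stac3, Trdn and Pvalb. They were taken by symbol from a read count table. All 10 were among the 55453 genes listed, and all 10 were among the 18311 that passed the filter on low counts. The skin came from 12 female C57/BL6 mice, 3 in each of 4 groups: wild-type animals given PBS (WT PBS) or bleomycin (WT BLM), and Thy-1 knockouts given PBS (KO PBS) or bleomycin (KO BLM). The Thy-1 KO mice were 8 to 12 weeks old, the Thy1 deletion was present in every cell type, and the line had been backcrossed to C57BL/6. Bleomycin, an antibiotic used to provoke fibrosis, was given under the back skin at 10 mg/kg per day. Harvest was on day 21. The sources differ on the injections, which last 21 days in the series' design and up to 14 days in the methods. Mice are named by their number: WT PBS 159, 160 and 161, WT BLM 145, 146 and 147, KO PBS 136, 137 and 139, and KO BLM 141, 143 and 144.

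In a striated muscle fibre, an action potential travels down the transverse tubule, where the voltage sensor in the tubule membrane opens the calcium release channel of the facing sarcoplasmic reticulum. Both membranes meet at the triad. Calcium leaves a store in which it is held by calsequestrin, binds the thin filament so that the sarcomere shortens, and is then returned to the store by a pump. In fast fibres a soluble protein binds part of the calcium in between. Mouse skin holds a sheet of striated muscle, the panniculus carnosus, beneath the fat layer, so a full-thickness sample contains muscle fibres as well as epidermis and dermis.

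The 10 genes lie on 6 chromosomes of GRCm38 (positions from GENCODE M21). Among them, Casq1 lies on the minus strand of chromosome 1 (chr1:172209894-172219868), Jph2 on the minus strand of chromosome 2 (chr2:163336242-163397993) and Pvalb on the minus strand of chromosome 15 (chr15:78191114-78206400). Cacng1 lies on the minus strand of chromosome 11 (chr11:107703218-107716522), Ryr1 on the minus strand of chromosome 7 (chr7:29003344-29125179) and Atp2a1 on the minus strand of the same chromosome (chr7:126445858-126463108). The bases before the start of 3 genes are shown because those genes differed in how they followed contractile RNA, as described further on. Casq1 stood higher beside it in WT BLM mice, Jph2 had the narrowest range of its ratio to it over the 12 mice, and Pvalb departed from it. Each is 250 bases, 5′ to 3′ on the gene's strand, from RefSeq (GRCm38.p6), and capitals mark matches to the E-box CANNTG, the letters bound by the myogenic bHLH factors among others.
Casq1 (chr1:172219896-172220145): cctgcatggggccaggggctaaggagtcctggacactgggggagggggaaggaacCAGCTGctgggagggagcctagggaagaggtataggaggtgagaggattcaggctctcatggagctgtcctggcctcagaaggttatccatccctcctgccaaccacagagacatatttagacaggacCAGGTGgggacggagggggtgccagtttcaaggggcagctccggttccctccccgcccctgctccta
Jph2 (chr2:163397994-163398243): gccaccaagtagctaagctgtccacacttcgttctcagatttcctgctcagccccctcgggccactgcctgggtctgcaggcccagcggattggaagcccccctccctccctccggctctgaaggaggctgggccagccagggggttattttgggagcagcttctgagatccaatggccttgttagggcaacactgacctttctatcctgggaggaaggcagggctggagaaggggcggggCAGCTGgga
Pvalb (chr15:78206401-78206650): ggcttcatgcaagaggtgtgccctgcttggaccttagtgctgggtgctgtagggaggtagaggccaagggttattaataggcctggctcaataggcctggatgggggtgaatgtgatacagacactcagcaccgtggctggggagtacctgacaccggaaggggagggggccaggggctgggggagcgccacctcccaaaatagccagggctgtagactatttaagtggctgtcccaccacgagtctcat

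The Casq1 window held 2 E-boxes, the Jph2 window 1 and the Pvalb window none. RefSeq windows were at hand for 6 of the 10 genes, the other 3 being Atp2a1, Cacna1s and Ryr1. Of these 6 windows, 4 held an E-box, as did 66.1% of 27025 mouse windows of the same length. The Ryr1 window held none, as that of Pvalb. The log2 ratio to contractile RNA had a range of 0.65 for Ryr1 and of 1.87 for Pvalb. Cacng1, with the widest range (2.09), had no window at hand. A link between E-boxes and these ranges was not tested. The letters CATTCC (MCAT), searched on both strands, were in 1 of the 6, that of Cacna1s, and in 12.6% of all windows. A strict form of the MEF2 motif was in 0 of the 6 and in 0.522% of all windows. Looser forms were not searched, so these values do not show that the windows, that of Pvalb included, lack MEF2 letters. No match overlapped a match of another motif. A match is only a match of letters, and these windows say nothing about binding.

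Between 26473700 and 38890450 reads were counted per library (median 31494965), and the 10 genes took 0.132% to 0.920% of a library. Their counts ran from 166 reads (Cacng1 in one mouse) to 207165 (Atp2a1). Markers of epidermis (summed 8246 to 44760 CPM) and fibroblasts (summed 3958 to 21733 CPM) were present in every library, as the skin label says. Thy1 itself averaged 123 ± 23.7 CPM after PBS and 332 ± 93.8 CPM after bleomycin in WT mice, and 73.3 ± 25.9 and 103 ± 22.4 CPM in KO mice (SD, n = 3 each). The KO mean was lower by a log2 difference of -0.75 after PBS (edgeR adjusted p = 0.224) and of -1.69 after bleomycin (adjusted p = 0.112), neither of them called. Reads on Thy1 thus remained in the KO libraries, and a gene total does not show which exons they cover. KO PBS mouse 136 stood apart from its group. Its growing-hair genes (18 genes, mean log2 CPM 10.58) lay with those of the WT PBS mice (9.94 to 10.59), whereas the other KO PBS mice were at -0.59 and 2.36. KO BLM mouse 141 was at 9.47, against 5.67 and 6.69 in its group. For the 10 genes, and for those comparisons of a gene list that are reported further on, counts of called genes that change without mouse 136 are also given without it. No label sets mouse 136 or 141 apart, so both were singled out by their values. Mouse 136 was also the lowest KO PBS mouse for each of the 10 genes. Leaving it out raises their KO PBS means, so calls made without it are not separate evidence.

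The question of the first comparison was how WT BLM skin differed from WT PBS skin. All 10 calcium genes rose. Levels are given as CPM, TMM-scaled reads relative to library size. Of all genes tested, 19.8% rose and 34.0% were called in either direction (edgeR, adjusted p under 0.05 over all genes). The 10 genes' median log2 fold change was 2.34, against 0.02 over all genes. Values of the WT BLM mice did not overlap those of the WT PBS mice for 10 of 10 genes, all in the upward direction, as was so for 28.3% of all genes. In a bulk sample, more muscle cells and more RNA per muscle cell cannot be told apart.

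**Figure D1:**
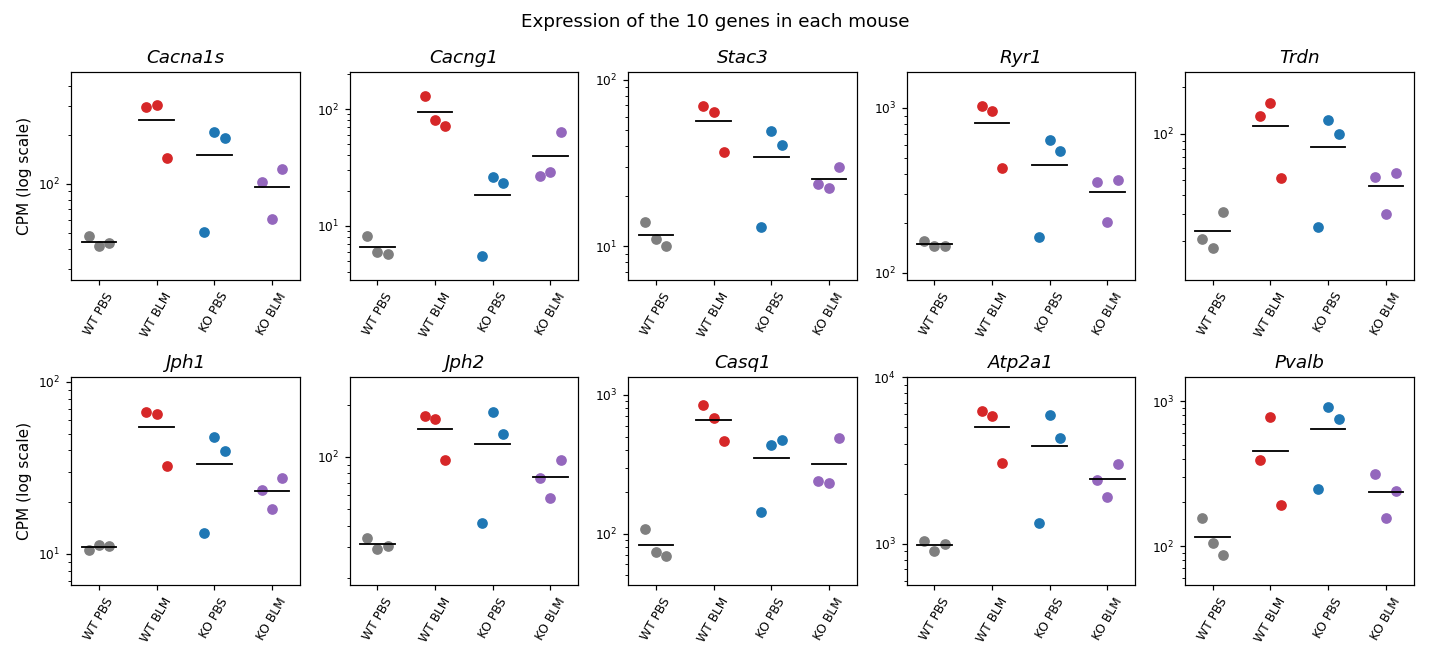
CPM (log scale) of each of the 10 genes in every mouse, with a point per mouse, coloured by group and drawn in order of mouse number, and a bar at the group mean. The WT PBS points lie below the WT BLM points in every panel, and KO PBS mouse 136, the first blue point, lies below both other KO PBS mice.

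The voltage sensor complex came first. Cacna1s, the pore-forming subunit of the skeletal L-type calcium channel that senses the tubule's voltage, was at 47.7, 41.4 and 43.4 CPM in WT PBS mice and at 296, 305 and 144 CPM in WT BLM mice. In KO PBS mice it was at 51.0, 208 and 192 CPM, and in KO BLM mice at 103, 61.2 and 123 CPM. The WT BLM mice were 3 of the highest 5, and KO PBS mouse 136 was close to the WT PBS mice. The WT difference was 2.49 on the log2 scale (SE 0.50, edgeR adjusted p = 0.0079). Stac3, an adaptor that the channel needs for its place at the triad, was at 14, 11.1 and 10.1 CPM in WT PBS, 69.6, 63.7 and 36.8 in WT BLM, 13.1, 49.3 and 40.6 in KO PBS and 23.7, 22.5 and 30.0 in KO BLM mice. It rose by 2.27 in WT mice (SE 0.43, adjusted p = 0.00675). As for Cacna1s, KO PBS mouse 136 was close to the WT PBS mice.

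Cacng1, the gamma-1 subunit of the same channel, had a different pattern and the widest spread of the 10. It was at 8.18, 5.89 and 5.68 CPM in WT PBS mice, and at 130.2, 80.0 and 71.1 CPM in WT BLM mice. In KO PBS mice it was at 5.52, 26 and 23.1 CPM, and in KO BLM mice at 26.9, 28.7 and 63.7 CPM. It was thus the only one of the 10 whose 3 KO BLM values all lay above the 3 KO PBS values. In WT mice it rose 14.2-fold, by 3.83 on the log2 scale (SE 0.58, 95% interval 2.55 to 5.11, adjusted p = 0.00424), with the largest estimate among the 10.

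On the reticulum side, Ryr1, the calcium release channel, was at 156, 146 and 146 CPM in WT PBS and at 1035, 962 and 433 CPM in WT BLM mice. It was at 166, 637 and 548 CPM in KO PBS and at 358, 203 and 367 CPM in KO BLM mice. Even the lowest WT BLM mouse stood above the highest KO BLM mouse. The WT rise was 2.44 (SE 0.49, adjusted p = 0.00813), or 5.42-fold. Trdn encodes triadin, which ties the release channel to calsequestrin. It was at 20.7, 18.1 and 31.1 CPM in WT PBS, 129.5, 157 and 51.5 in WT BLM, 25.0, 123 and 99.0 in KO PBS and 52.2, 30.0 and 55.8 in KO BLM mice, and in WT mice it rose by 2.27 (SE 0.57, adjusted p = 0.0168). WT BLM mouse 147 and KO PBS mouse 136 were again the low mice of their groups.

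The junctophilins Jph1 and Jph2 hold the tubule and reticulum membranes together. Jph1 was at 10.6, 11.3 and 11.1 CPM in WT PBS, 66.6, 64.8 and 32.3 in WT BLM, 13.2, 47.5 and 39.8 in KO PBS and 23.4, 18.2 and 27.7 in KO BLM mice. Jph2 was at 34.1, 29.1 and 30.5 CPM in WT PBS, 171, 165 and 95.3 in WT BLM, 41.3, 179.9 and 135 in KO PBS and 74.9, 57.7 and 95.4 in KO BLM mice. Both stood at a near constant level in WT PBS mice and far above it in WT BLM mice. Jph1 rose by 2.31 (SE 0.43, adjusted p = 0.00662) and Jph2 by 2.20 (SE 0.45, adjusted p = 0.00863).

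Casq1, the fast-fibre calsequestrin that holds calcium in the store, was at 108, 73.8 and 68.4 CPM in WT PBS and at 841, 677 and 468 CPM in WT BLM mice. In KO PBS mice it was at 143, 435 and 473 CPM and in KO BLM mice at 238, 230.5 and 486 CPM. The KO groups overlapped widely. Its WT rise of 2.99 (SE 0.48, adjusted p = 0.00477), 7.93-fold, was second in size to that of Cacng1. Atp2a1, the fast-fibre calcium pump SERCA1, was at 1037, 905 and 998 CPM in WT PBS, 6272, 5847 and 3036 in WT BLM, 1329, 5919.6 and 4318 in KO PBS and 2410.0, 1896 and 2993 in KO BLM mice. It rose by 2.37 in WT mice (SE 0.49, adjusted p = 0.00928), and KO PBS mouse 137 reached the level of the WT BLM mice.

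Pvalb encodes parvalbumin, the soluble calcium buffer of fast fibres. It was at 155, 105 and 86.3 CPM in WT PBS mice and at 392, 782 and 191 CPM in WT BLM mice. It was at 919 and 759 CPM in KO PBS mice 137 and 139, at 246 CPM in mouse 136, and at 317, 156 and 239 CPM in KO BLM mice. The highest value of Pvalb was therefore in a KO PBS mouse. Its WT rise was the smallest estimate of the 10, at 1.98 (SE 0.57, 95% interval 0.70 to 3.25, adjusted p = 0.0272). The calls of Trdn and Pvalb were the ones that depended on single mice. Trdn was lost without WT PBS mouse 159 or 160 (adjusted p = 0.0621 and 0.0651). Pvalb was lost without WT PBS mouse 159, 160 or 161 (adjusted p = 0.0565, 0.0851 and 0.0851) or without WT BLM mouse 146 (log2 difference 1.34, adjusted p = 0.0958).

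**Figure D2:**
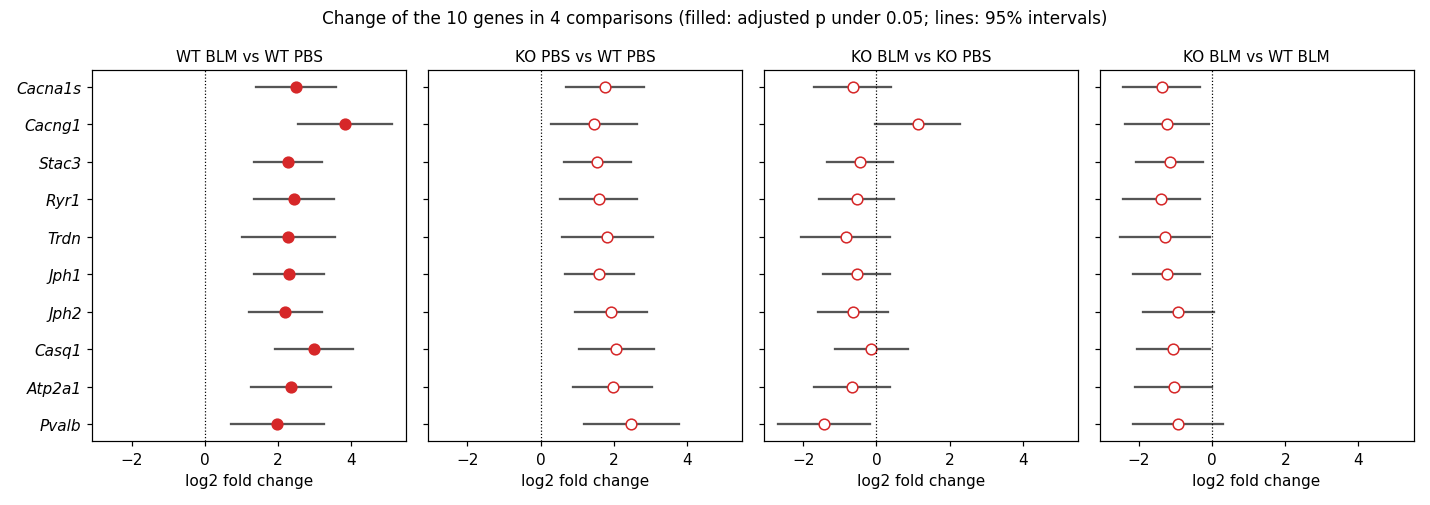
Log2 fold change of each gene (point) with its 95% interval (line) in 4 comparisons, from edgeR. Filled points have an adjusted p under 0.05, which holds for 10 of 10 genes in WT BLM against WT PBS and for 0 of 10 in the other 3 comparisons.

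The same treatment in KO mice gave no call among the 10 genes, with 56 genes called in all, 0.306% of those tested. At an unadjusted p under 0.05, 1 of the 10 passed, Pvalb, against 20.0% of all genes, and DESeq2 also called 0 of the 10 beside 6.14% of all genes. The median log2 difference was -0.59, and 9 of the 10 estimates were below 0. Pvalb was at -1.43 (95% interval -2.69 to -0.18, adjusted p = 0.200), Ryr1 at -0.54 (-1.57 to 0.49), Atp2a1 at -0.66 (-1.71 to 0.38) and Casq1 at -0.14 (-1.13 to 0.85). Casq1 came to between 0.02 and 0.14 when KO PBS mouse 137 or 139 or KO BLM mouse 141 or 143 was left out. Cacng1 alone was above 0, at 1.13 (95% interval -0.03 to 2.28, adjusted p = 0.259). It was also the 1 gene of 10 whose groups did not overlap, higher in KO BLM mice as 10.8% of all genes were. Without KO PBS mouse 136, Jph2 (-1.05, adjusted p = 0.0331) and Pvalb (-1.82, adjusted p = 0.0415) were called lower, beside 4.79% of all genes. Without mice 136 and 141 together, the called genes were again Jph2 (-1.04, adjusted p = 0.0427) and Pvalb (-2.09, adjusted p = 0.0328), beside 8.73% of all genes.

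Whether the bleomycin response differed between genotypes was tested as the difference of both responses, KO minus WT. All 10 estimates were negative, from -2.71 (Stac3 and Cacng1) to -3.41 (Pvalb), with a median of -3.01 against -0.05 over all genes. None passed the threshold, nor did any other gene (0% called). The adjusted p of the 10 ran from 0.0702 to 0.0749, and all 10 had an unadjusted p under 0.05, as did 31.1% of all genes. For Cacng1 the difference of -2.71 had a 95% interval of -4.36 to -1.05, and for Ryr1 the difference of -2.98 had one of -4.47 to -1.49. DESeq2 called 10 of 10 lower (adjusted p 0.000237 to 0.00601), beside 10.6% of all genes. edgeR called 10 of 10 lower without KO PBS mouse 136, beside 19.5% of all genes, and 10 of 10 without mice 136 and 141, beside 18.9%. Mouse 136 was the lowest KO PBS mouse for each of the 10 genes, so leaving it out makes these estimates more negative by construction.

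The genotypes were also compared within each treatment. These comparisons share their mice with those above, so they are not separate evidence. In PBS-injected skin all 10 estimates were higher in KO than in WT mice, from 1.47 (Cacng1) to 2.47 (Pvalb) with a median of 1.79, and 0 of 10 were called (adjusted p 0.194 to 0.211), beside 0.0655% of all genes. Unadjusted p was under 0.05 for all 10 and for 20.4% of all genes. For 7 of the 10 the KO PBS values lay wholly above the WT PBS values, against 8.62% of all genes, the other 3 being Cacng1, Stac3 and Trdn. For Pvalb the 95% interval was 1.18 to 3.77 and for Ryr1 0.54 to 2.65. DESeq2 called 9 of the 10 higher, all but Cacng1 (adjusted p = 0.0784), beside 2.38% of all genes. Without KO PBS mouse 136, edgeR called all 10 higher, with Pvalb at 2.86 (adjusted p = 0.00322) and Jph2 at 2.33 (adjusted p = 0.000969), beside 17.8% of all genes. Without mice 136 and 141 it again called 10, beside 19.6%. Leaving out mouse 136 raises the KO PBS means of the 10 genes by construction.

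In bleomycin-injected skin all 10 estimates were lower in KO than in WT mice, with a median of -1.20, and 0 of 10 were called (adjusted p 0.25 to 0.392), beside 0.0928% of all genes. An unadjusted p under 0.05 was reached by 8 of the 10 and by 16.6% of all genes, and DESeq2 called 0 of the 10, beside 3.34% of all genes. Ryr1 was at -1.39 (95% interval -2.44 to -0.34), Cacna1s at -1.38 (-2.43 to -0.32), and Pvalb at -0.94 (-2.18 to 0.30). With a mouse left out, the Pvalb estimate ran from -1.30 to -0.30, the value nearest 0 being that without WT BLM mouse 146. For 6 of the 10 the KO BLM values lay wholly below the WT BLM values, against 12.9% of all genes. The other 4 were Casq1, Jph2, Trdn and Pvalb. Without KO PBS mouse 136, which is in neither of these groups but shares the estimate of spread, Ryr1, Cacna1s, Jph1 and Stac3 were called lower (adjusted p 0.0285 to 0.0372), beside 3.11% of all genes. Without mice 136 and 141, 0 of the 10 were called, beside 4.36%.

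Levels of different genes were compared per length, as reads per kilobase of merged exon on the CPM scale (RPKM). Merged exons join those of all annotated transcripts of a gene (9352 bases for Trdn). A gene read mainly from shorter transcripts therefore has its level understated, and which transcripts were read was not tested. In WT PBS mice Atp2a1 was highest at 282 ± 19.5 RPKM, then Pvalb at 111 ± 34.2 and Casq1 at 42.8 ± 11.1 (SD, n = 3). Jph2 (7.34), Ryr1 (6.84), Cacna1s (6.74), Cacng1 (5.27) and Stac3 (4.62) followed, each overlapping its neighbour in this order. Trdn (2.49 RPKM) and Jph1 (2.20 RPKM) were lowest and overlapped each other. The pump, the buffer and the store protein were thus the 3 most abundant transcripts of the 10 in every group, and the channel subunits and membrane tethers were lower. The order changed for Cacng1, which was 7th in WT PBS (5.27 ± 1.11 RPKM) and in KO PBS mice (14.6 ± 8.88) and 4th in WT BLM (75.1 ± 25.5) and in KO BLM mice (31.9 ± 16.6). In WT BLM mice its range, 56.9 to 104 RPKM, lay above that of the next gene, Cacna1s (22.0 to 46.6). In KO BLM mice its range of 21.5 to 51.0 RPKM overlapped that of Jph2 (13.6 to 22.4).

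**Figure D3:**
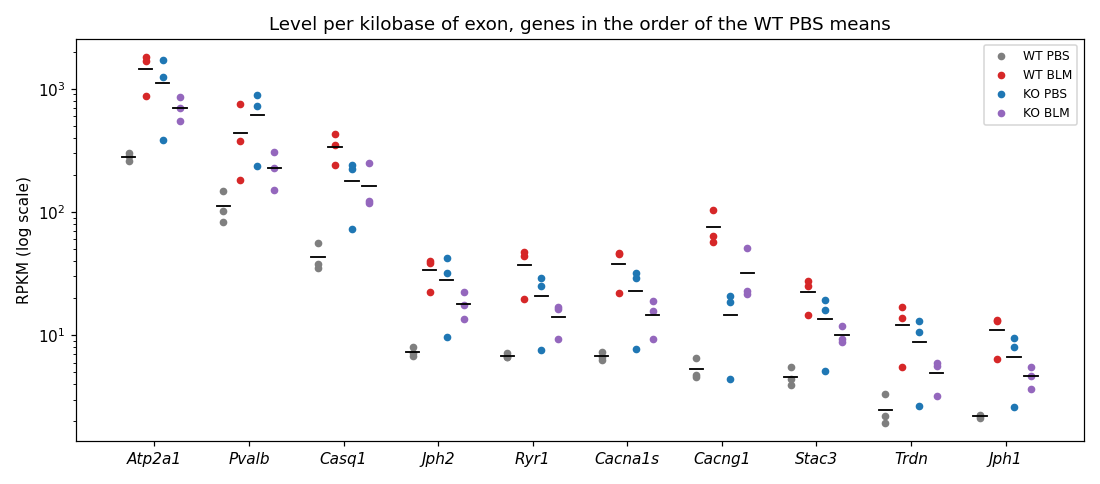
RPKM (log scale) of each gene in the 4 groups, with a point per mouse and a bar at each group mean, in the order of the WT PBS means. Atp2a1 is highest in every group, and Cacng1 passes the genes beside it in WT BLM mice, where it averaged 75.1 RPKM.

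The 10 genes moved together with the contractile genes. A list of 20 genes of the fast sarcomere and fast-fibre energy metabolism (among them Acta1, Ckm, Myh4, Tnnt3 and Ttn) had 19 of 20 raised by bleomycin in WT mice and none lowered, with a median of 2.39, and 0 of 20 called in the other 4 tests. The exception, Myh4, was at 1.82 (adjusted p = 0.308). Without KO PBS mouse 136, 19 of 20 were again raised in WT mice, 3 were lower in KO BLM than in KO PBS mice, 17 were higher in KO PBS than in WT PBS mice, 2 were lower in KO BLM than in WT BLM mice, and 18 were lower in the difference of responses. The shares of all genes called in either direction were then 45.7%, 14%, 36.7%, 6.89% and 39.9% in the same order. Summed, these genes ran from 6910 to 7640 CPM in WT PBS, 23815 to 49444 in WT BLM, 8497 to 35823 in KO PBS and 14082 to 26488 in KO BLM mice. The mean log2 CPM of the 10 calcium genes was 5.39 to 5.67 in WT PBS mice and 8.28, 8.27 and 7.26 in WT BLM mice. It was 5.85 in KO PBS mouse 136, 7.85 and 7.61 in the other KO PBS mice, and 6.84, 6.39 and 7.19 in KO BLM mice. As with the sarcomere genes, mouse 136 was beside the WT PBS mice. Hair genes moved the other way, with 8 of 18 lower in WT BLM mice and none higher, beside 14.1% of all genes lower. Without mouse 136, 18 of 18 were lower, beside 21.6% of all genes. In the other 4 tests 0 of 18 were called. Without mouse 136, 9 were higher in KO BLM than in KO PBS mice and 18 were lower in KO PBS than in WT PBS mice. Then 8 were also higher in KO BLM than in WT BLM mice, and the difference of responses was called positive for 18. The mean log2 CPM of the hair genes was -0.06 to 4.01 in WT BLM mice, against 9.94 to 10.59 in WT PBS mice. Treatment and hair gene level thus went together in WT mice and cannot be told apart there. The part of the hair genes, and the part of the amount of muscle, in the change of the 10 genes was not tested.

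**Figure D4:**
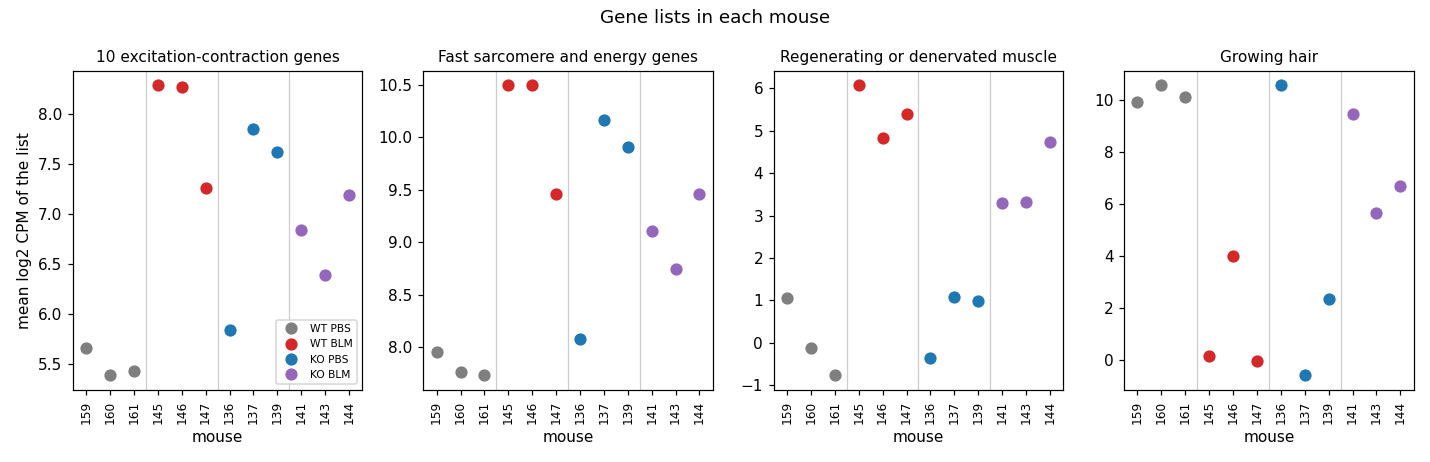
Mean log2 CPM of 4 gene lists in each mouse, coloured by group and ordered by mouse within the group. The 10 calcium genes and the fast sarcomere genes give nearly the same picture, the regenerating list is low in both PBS groups, and the hair list is high in WT PBS mice, KO PBS mouse 136 and KO BLM mouse 141.

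Each gene was then set beside the summed sarcomere RNA of its own library, as reads per 10000 sarcomere reads, which is a description with no test (3 mice against 3 cannot give an exact permutation p below 0.1). For most of the 10 the large differences between mice shrank. Over the 12 mice the highest and lowest values of Atp2a1 were 2.79 apart in log2 CPM and 0.55 apart in the log2 ratio, those of Ryr1 2.82 and 0.65, and those of Jph2 2.61 and 0.54. Atp2a1 averaged 1359 ± 50.3 per 10000 after PBS and 1291 ± 32.8 after bleomycin in WT mice, and 1537 ± 131 and 1297 ± 149 in KO mice. Ryr1 averaged 207 ± 3.52, 203 ± 19.1, 183 ± 10.2 and 164 ± 39.8 in the same order. Cacna1s, Jph1, Stac3 and Trdn also overlapped between WT BLM and WT PBS mice on this scale. The width that remained was largest for Cacng1 (2.09) and Pvalb (1.87).

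Cacng1 was at 10.7, 8.52 and 8.02 per 10000 in WT PBS mice and at 26.3, 18.2 and 29.8 in WT BLM mice. It was at 6.49, 7.27 and 7.45 in KO PBS mice and at 15.8, 20.4 and 24.1 in KO BLM mice. Both bleomycin groups lay wholly above their PBS groups, by 1.33 (WT) and 1.45 (KO) in the log2 ratio, and KO PBS mouse 136 no longer stood apart. Casq1 averaged 115 ± 23.6 per 10000 in WT PBS and 174 ± 21.6 in WT BLM mice without overlap (0.60 in the log2 ratio), and 147 ± 23.7 and 162 ± 21.9 in KO PBS and KO BLM mice with overlap. So 2 of the 10 genes lay higher without overlap in WT BLM mice, beside 0.617% of all genes, and 1 of 10 in KO BLM mice, beside 3.60%. In either direction, 92.6% of all genes did not overlap in WT mice, 16851 of those 16964 being lower on this scale, and 4.76% did not overlap in KO mice. Jph2 was the 1 gene lower in WT BLM mice, at 37.4 ± 2.69 against 43.3 ± 1.25 per 10000.

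Pvalb went another way. It was at 203, 152 and 122 per 10000 in WT PBS mice and at 79.3, 178 and 80.1 in WT BLM mice, and these groups overlapped. It was at 289, 257 and 245 in KO PBS mice and at 186, 111 and 90.1 in KO BLM mice. The KO PBS mice, mouse 136 included, thus had the highest Pvalb per sarcomere RNA of the 12. They lay wholly above the WT PBS mice, by 0.75 in the log2 ratio, and the KO BLM mice lay wholly below them, by 1.10. Between PBS groups Pvalb was higher and Ryr1 and Cacng1 were lower in KO mice without overlap, 3 of 10 genes, beside 64.9% of all genes in either direction and 0.0874% in the higher one. Between bleomycin groups all 10 overlapped, where 28.4% of all genes did not.

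**Figure D5:**
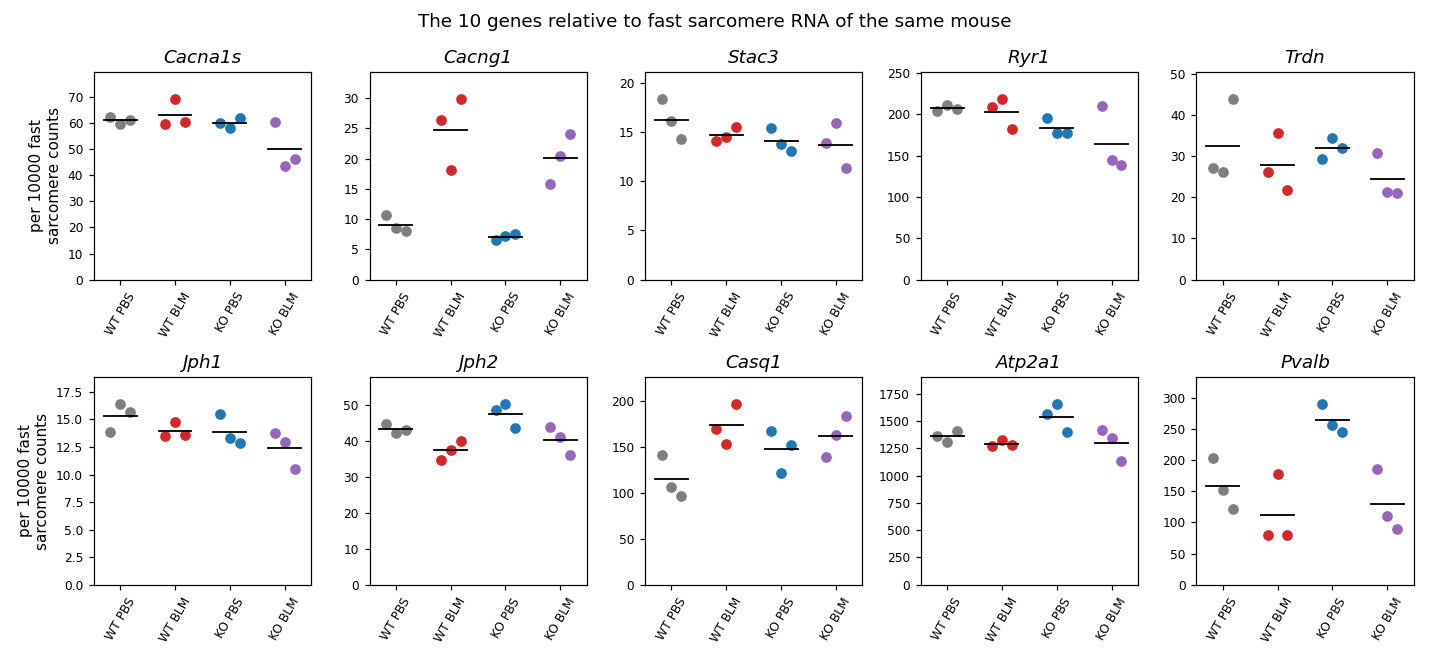
Reads of each gene per 10000 reads of the 20 fast sarcomere genes in the same mouse (linear axes from 0), with a point per mouse and a bar at the group mean. Cacng1 is higher in both bleomycin groups than in both PBS groups, Pvalb is highest in the 3 KO PBS mice, and Cacna1s, Ryr1 and Atp2a1 vary little in comparison.

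Over the 12 mice, log2 CPM of the 10 genes gave 45 pairwise Pearson r from 0.52 (Cacng1 with Pvalb) to 0.998 (Atp2a1 with Jph2), with a median of 0.956. For the 8 genes other than Cacng1 and Pvalb, the 28 values ran from 0.884 to 0.998. These r are descriptions over 12 libraries that share their group differences and their muscle content. By r with the mean of the 10 genes, the most similar of 13828 other genes were Tmem38a (0.995), a potassium channel of the reticulum membrane, Smyd1 (0.994), a muscle methyltransferase, Mypn (0.993), a sarcomere scaffold, Plpp7 (0.993) and Camk2a (0.992), a calmodulin-dependent kinase.

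The other genes of the same machinery were taken as a list of 22. In WT BLM against WT PBS mice, 19 of the 22 rose and none fell, with a median of 2.20, where 19.8% of all genes rose. The 6 with the smallest adjusted p were Casq2 (3.68, adjusted p = 0.00314), the calsequestrin of slow and cardiac fibres, Cav3 (3.89, muscle caveolin), Sypl2 (2.84, a triad membrane protein), Bin1 (2.57, which shapes tubules), Hrc (2.65, a calcium-binding protein of the reticulum) and Srl (2.72, sarcalumenin). Those not called were S100a1 (-0.97, adjusted p = 0.0576), Mtm1 (0.50) and Fkbp1a (-0.20, adjusted p = 0.304). In the other 4 tests 0 of 22 were called. Without KO PBS mouse 136, 20 rose and 1 fell in WT mice, 2 rose and 2 fell in KO mice, 17 were higher and 2 lower in KO PBS than in WT PBS mice, 10 were lower in KO BLM than in WT BLM mice, and the difference of responses was called negative for 18 and positive for 2. The shares of all genes called in either direction were then 45.7%, 14%, 36.7%, 6.89% and 39.9% in the same order. Of the 22, the 3 most abundant were Srl, Stim1 and Fkbp1a, which in KO BLM against KO PBS mice were at -0.09, -0.28 and 0.27. Casq2, chosen after its values were seen, was at 2.13 there (adjusted p = 0.0737), and averaged 10.6 CPM after PBS and 136 CPM after bleomycin in WT mice, and 11.3 and 49.8 CPM in KO mice.

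Relatives of the 10 genes, not all of them confined to other tissues, gave a mixed picture. Of 22 listed, 17 passed the filter. In WT mice 6 rose and 2 fell, with a median of 0.61 against 2.34 for the 10 genes, and 0 of 17 were called in the other 4 tests. Of all genes, 19.8% rose and 14.1% fell in WT mice, so these counts alone do not set the relatives apart. When mouse 136 was left out, 7 rose and 2 fell in WT mice, 0 of 17 were called in KO mice, 5 were higher and 2 lower in KO PBS than in WT PBS mice, 3 were lower in KO BLM than in WT BLM mice, and the difference of responses was called negative for 8 and positive for 2. The shares of all genes called in either direction were then 45.7%, 14%, 36.7%, 6.89% and 39.9% in the same order. With all mice, the 6 relatives with the smallest adjusted p in WT mice were Cacng6 (2.76), Cacna1d (1.83), Cacng5 (-3.87), Cacna1c (1.35), Cacng4 (-4.37) and Atp2a3 (1.24), with adjusted p from 0.00636 to 0.0181. Cacng5 had 0 to 30 reads per library, so its fold rests on few reads. The most abundant relatives were not called: Itpr3 was at 0.27, Itpr2 at 0.32 and Atp2a2, the pump of slow muscle, heart and most other cells, at 0.20 (SE 0.21, adjusted p = 0.454). Atp2a2 averaged 325 CPM in WT PBS and 375 CPM in WT BLM mice. The other ryanodine receptors had few reads, with 6 to 32 per library for Ryr2 and 6 to 46 for Ryr3, and the other calcium buffers Ocm, Calb1 and Calb2 had at most 10 reads in any library.

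Markers of other muscle states moved in the same comparison. Of 11 genes of regenerating or denervated muscle, 11 rose in WT mice (median 5.38), and 3 rose in KO mice, Mymk (4.98), Chrng (4.73) and Myh3 (6.99), with a median of 3.70. Their mean log2 CPM was -0.77 to 1.06 in WT PBS, 4.82 to 6.07 in WT BLM, -0.35 to 1.07 in KO PBS and 3.29 to 4.73 in KO BLM mice, so both bleomycin groups lay above both PBS groups, as for Cacng1 per sarcomere RNA. Of 8 slow-fibre genes, 7 rose in WT mice (median 4.35) and 1 in KO mice, Tnnc1 (6.65, adjusted p = 0.0341). Of all genes, 19.8% rose in WT mice and 0.251% in KO mice. With mouse 136 left out, 6 of the 11 and 4 of the 8 rose in KO mice, beside 9.25% of all genes. The part of these muscle states in the change of Cacng1 and the other genes was not tested.

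Markers of other cell types that use calcium genes were read beside these. Of the 5 heart genes, Myh6 (0 to 7 reads) and Nppa (0 to 2 reads) were at or near 0 in all 12 libraries, whereas Actc1, Tnnt2 and Tnni3 rose in WT mice and 0 of 3 were called in KO mice. Summed, Actc1, Tnnt2 and Tnni3 were at 10.3 to 28.9 CPM in WT PBS and 354 to 736 in WT BLM mice. In KO mice they summed to 17.7 to 30.1 CPM after PBS and 85.5 to 324 CPM after bleomycin. Most of the sum in WT BLM mice was Actc1 (mean 366 CPM) and Tnnt2 (153 CPM), with Tnni3 at 4.28 CPM. Whether these reads came from skeletal muscle fibres or from other cells was not tested. Of 6 smooth muscle genes, Synpo2 rose and Smtn fell in WT mice, none were called in KO mice, and the summed level overlapped between WT PBS (376 to 483 CPM) and WT BLM mice (432 to 570 CPM), at 532 to 549 CPM in KO PBS and 395 to 452 CPM in KO BLM mice. Nerve genes bear on Pvalb, since some neurons make it, and of these Snap25 had 0 to 2 reads and Nefl 0 to 16 reads per library. Of 4 adipocyte genes 0 were called in WT or KO mice, and their sum ran from 161 to 237 CPM in WT PBS, 94.1 to 528 in WT BLM, 247 to 867 in KO PBS and 56.5 to 321 CPM in KO BLM mice. Leaving mouse 136 out, 1 of 3 heart genes rose in KO mice, 1 smooth muscle gene and 1 adipocyte gene fell in KO mice, and 1 smooth muscle gene rose and 2 fell in WT mice. Of all genes, 34.0% were called in either direction in WT mice and 0.306% in KO mice, and 45.7% and 14% without mouse 136.

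Some exons of 5 of the 10 genes overlap a gene on the other strand, and whether reads were counted by strand is not given in the sources used here. Atp2a1 shares 21.9% of its exon bases with Rabep2, which was at 24.4 to 49 CPM, far under Atp2a1 in every library. Cacna1s shares 20.0% with an antisense gene of 0 to 5 reads, Casq1 8% with one of 1 to 7 reads and Ryr1 3.96% with one of 0 to 4 reads. Jph1 shares 0.68%.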

How the data were processed

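RNA-Seq of skin from 12 mice was used. The authors made stranded mRNA libraries and deposited a table of read counts per gene without normalization. The submitters' processing notes name GRCm38.p6 and MultiQC 1.7, and the aligner, the counting tool and its use of strand are not given in the sources used here. The 10 genes and all lists were chosen with earlier results of these data known.

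Counts were filtered with filterByExpr (minimum count 10, minimum total 15), scaled by TMM and fitted with 4 group means in edgeR 4.0.16 (quasi-likelihood, R 4.3.3, limma 3.58.1). Benjamini-Hochberg adjustment covered all 18311 genes tested, with a threshold of 0.05. The 5 contrasts were read for the 10 genes, and SE and 95% intervals come from the same fit. CPM are TMM-scaled, the log2 CPM of the lists has a prior count of 2, and RPKM used merged GENCODE M21 exons. Ratios to the summed CPM of 20 fast sarcomere genes used a pseudocount of 0.5 CPM on the log2 scale. Similar genes were ranked among genes with a mean log2 CPM of at least 1. All 10 genes were named. From the lists of other machinery genes and of relatives, up to 6 genes of smallest adjusted p were named, or the 3 of highest mean CPM where none was called, and Thy1 was named as the targeted gene. Figures were drawn with Python 3.11.15 and matplotlib 3.10.9. Libraries of a group differed beyond counting noise. The labels give no litter or batch, so neither could be modelled. The p-values set differences of group means against the spread between mice, which may include such unlabelled differences. Lowest total depth was 26473700 counts. The code was tested on simulated counts. Alternatives were DESeq2 1.42.0, RLE and upper-quartile scaling, no filter, a mean of at least 1 CPM, the compared groups alone, each mouse left out, and mice 136 and 141 left out.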

Additional observations from a re-analysis of the deposited data

How the results depend on the processing

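Over all alternatives, WT BLM against WT PBS kept 10 of 10 genes called except with a mouse left out (8 to 10). With a mouse left out, the number called was 0 to 2 for KO BLM against KO PBS, 0 to 10 for KO PBS against WT PBS, 0 to 4 for KO BLM against WT BLM and 0 to 10 for the difference between responses, and each upper value came without KO PBS mouse 136. Without mice 136 and 141 the numbers were 2, 10, 0 and 10. DESeq2 called 9 for KO PBS against WT PBS and 10 for the difference. Other scalings, filters and the compared groups alone changed no call. The single direction that turned was Casq1 in KO BLM against KO PBS (-0.14), which ran from -0.58 to 0.14 with a mouse left out and was above 0 without KO PBS mouse 137 or 139 or KO BLM mouse 141 or 143. The causes were not tested. Ratios to sarcomere RNA were recomputed for the WT and the KO response, where those of groups without overlap kept their direction, and not for the comparisons between genotypes. No paired analysis was possible because each mouse has its own number and no 2 groups share one. With 3 mice per group and a median biological coefficient of variation of 34.9%, intervals of the 10 genes were wide, and a missed threshold does not show that groups were alike.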

Other observations

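Cacng1 has 2 neighbours of its own family on the minus strand of chromosome 11, Cacng4 (chr11:107732357-107794557) and Cacng5 (chr11:107874605-107915055), in GRCm38. In WT skin the 3 genes went in opposite directions with bleomycin. Cacng1 rose by 3.83 on the log2 scale, whereas Cacng4 fell from a mean of 9.91 CPM to 0.477 CPM (log2 change -4.37, edgeR adjusted p = 0.0173) and Cacng5 from 0.735 to 0.0457 CPM (-3.87, adjusted p = 0.0104), the latter with at most 30 reads in a library. Cacng4 ran from 0.571 to 7.88 CPM in KO PBS mice and from 0.806 to 5.51 CPM in KO BLM mice. Cacng6, on chromosome 7 (chr7:3424195-3435667), rose by 2.76 (adjusted p = 0.00636) and averaged 4.66, 31.5, 18.5 and 15.3 CPM after PBS and bleomycin in WT mice and then in KO mice, an order of groups like that of Cacna1s rather than that of Cacng1.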
